A study of Mus musculus with 10 samples.

Results

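The choroid plexus is the secretory epithelium that lines parts of the brain ventricles and makes cerebrospinal fluid. A set of 10 genes enriched in this epithelium was followed in the cortex of mice that carry a Chd8 knock-in allele (KI) and of wild-type (WT) mice: Ttr, Kl, Enpp2, Kcne2, Folr1, Clic6, Cab39l, Slc31a1, Ace and Tmem72. They are 10 of the 13661 genes in the authors' deposited table, were picked by symbol, and all passed whatever filter on low values the authors applied. They were chosen with their fold changes in this comparison known, 9 as lower in KI and Tmem72 as the exception. Every fold change of these genes is therefore given as a description, with no test of the set.

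The series holds 5 KI and 5 WT libraries of poly(A) RNA, each from the cortex of 1 male aged 8 weeks. Chd8 encodes a chromodomain helicase that remodels chromatin, and the series title describes a duplication of the gene. The sources used here do not give the construct, the site of insertion, the strain, the number of founder lines or whether any animals were littermates. What was deposited is 1 comparison per gene: the mean normalised count over all 10 libraries, the log2 fold change with its standard error (SE), the Wald score, the p-value and the adjusted p-value. Values per library and library depths were not analysed here, so it cannot be said which animals were high or low or whether the groups overlapped. The file header names no direction. A positive value was read as higher in KI because Chd8 itself is positive on that reading (log2 fold change 0.49, SE 0.10 in the authors' deposited table), and all directions rest on it. Cortical excitatory neuron markers were abundant in the authors' deposited table: the mean normalised count was 28078.2 for Slc17a7, 62823.5 for Camk2a and 2843.3 for Tbr1.

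Choroid plexus epithelial cells secrete fluid and carrier proteins and exchange ions, hormones and vitamins between blood and cerebrospinal fluid. These cells sit in the ventricles and are not part of the cortical wall. In bulk RNA, fewer cells of a type and less RNA per cell cannot be told apart. The 10 genes also differ in how closely they are tied to this epithelium. Ttr, Kcne2, Folr1, Clic6 and Tmem72 are largely restricted to it within the brain, whereas Enpp2 is also made by oligodendrocytes, Ace by endothelial cells and striatal neurons, Kl by neurons, and Slc31a1 and Cab39l by many cell types.

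RefSeq promoter sequences of GRCm38.p6, the assembly behind mm10, were at hand for 9 annotated starts of 6 of the 10 genes (Slc31a1, Kl, Tmem72, Ace, Cab39l and Kcne2). The 3 printed are those whose 250 bases before the start lie wholly outside the gene's RefSeq span, and they belong to genes with negative log2 fold changes. Of the Tmem72 window, 224 of the 250 bases lie inside the gene's own RefSeq span, so it is not printed. Each run is 5′ to 3′ on the gene's own strand. The windows are on the plus strand, chr16:92292139-92292388 for Kcne2, chr5:150952357-150952606 for Kl and chr11:105967698-105967947 for Ace (the somatic form's start), and for Kcne2 and Ace each is the first of 2 listed starts. Capitals mark matches on either strand to TAATCC (bound by OTX2, a homeodomain factor of this epithelium), GTAAACA (forkhead factors), GTTGCC (the core of RFX factor sites), TATAAA or GGGCGG (the GC box).
Kcne2: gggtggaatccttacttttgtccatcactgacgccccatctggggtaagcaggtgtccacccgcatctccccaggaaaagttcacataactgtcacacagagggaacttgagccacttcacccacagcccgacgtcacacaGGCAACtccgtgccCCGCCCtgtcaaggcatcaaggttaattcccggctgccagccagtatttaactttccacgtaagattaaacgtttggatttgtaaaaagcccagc
Kl: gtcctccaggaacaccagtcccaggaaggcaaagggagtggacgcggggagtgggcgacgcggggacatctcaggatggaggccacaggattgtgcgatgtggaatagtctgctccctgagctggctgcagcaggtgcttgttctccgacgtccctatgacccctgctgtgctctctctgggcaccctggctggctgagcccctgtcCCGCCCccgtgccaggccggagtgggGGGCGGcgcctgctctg
Ace: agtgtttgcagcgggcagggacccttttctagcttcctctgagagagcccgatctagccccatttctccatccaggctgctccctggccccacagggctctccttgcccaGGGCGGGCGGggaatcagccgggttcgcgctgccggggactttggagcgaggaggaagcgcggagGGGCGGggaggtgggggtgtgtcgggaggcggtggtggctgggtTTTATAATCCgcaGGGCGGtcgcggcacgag

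The printed Kcne2 window held 1 RFX core and 1 GC box, and the Kl window 2 GC boxes. The Ace window held 3 GC boxes and, overlapping each other near the start, 1 TATAAA and 1 TAATCC match, counting GC boxes that overlap once. The Slc31a1 window held 1 GC box. The other 5 of the 9 windows held none of the 5 motifs: that of Tmem72, both of Cab39l and the second of Kcne2 and of Ace. All 5 reach into the gene's own RefSeq span. The second windows of Cab39l, Kcne2 and Ace have all 250 bases inside it, and the first of Cab39l has 29. Among windows that reach into the gene, a lack of matches was not particular to Tmem72. The 3 windows wholly outside the gene all held matches. Over 32851 promoter windows of this length, the share with a match was 6.25% for TAATCC, 3.17% for GTAAACA, 10.4% for GTTGCC, 12.4% for TATAAA and 32.7% for GGGCGG. Over the 13791 windows of genes tested here it was 4.92% for TAATCC, 2.04% for GTAAACA, 10.6% for GTTGCC, 6.41% for TATAAA and 57% for GGGCGG. These matches describe the letters of the windows and say nothing about which factor binds there.

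None of the 10 genes had an adjusted p under 0.05 in the authors' deposited table, where 0.0732% of the 13660 genes with a p-value did (9 lower in KI, or 0.0659%, and 1 higher, or 0.00732%). On the log2 scale 9 of the 10 were negative, from -0.051 for Slc31a1 to -0.51 for Kcne2 with a median of -0.19, and Tmem72 stood at 0.67. Over all genes 48.4% were negative and 51.6% positive, and the median log2 fold change was 0.0025. The 95% interval, computed from the deposited log2 fold change and SE, lay below 0 for 5 of the 9 negative genes (Kcne2, Kl, Folr1, Ace and Enpp2) and included 0 for the other 4. An unadjusted p under 0.05 on the lower side marks the same 5 genes, because it rests on the same log2 fold change and SE. Of all genes 1.88% lay on that side. Tmem72 was the 1 gene of the set on the higher side, where 1.34% lay. The choice of genes used this contrast, so nothing is read from these shares.

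**Figure D1:**
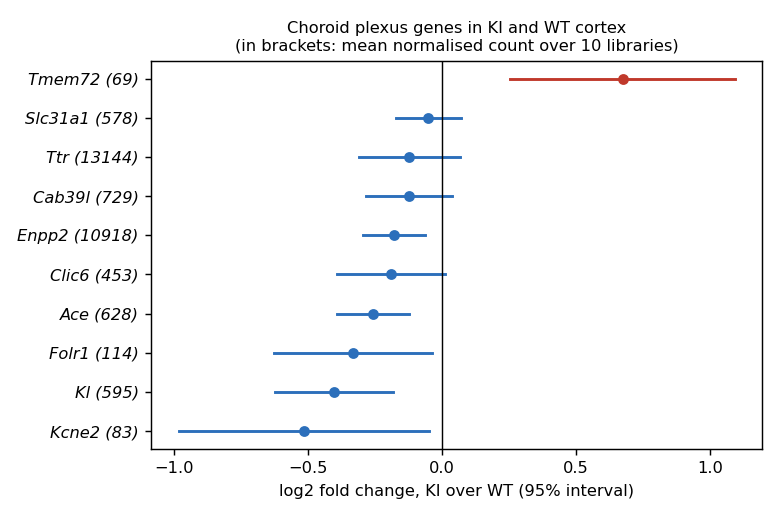
Log2 fold change of the 10 genes, KI over WT, from the authors' deposited table; points are estimates, lines 95% intervals, and the brackets give the mean normalised count. Tmem72 (0.67) is the only one of the 10 to the right of 0, and the other 9 run from -0.051 to -0.51.

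Ttr and Enpp2, which encode secreted proteins, had the highest levels per kilobase of the set. Ttr encodes transthyretin, which carries thyroxine and retinol-binding protein in the cerebrospinal fluid and is the signature product of this epithelium. Its mean normalised count in the authors' deposited table was 13144.3, and its log2 fold change -0.12 (SE 0.096), a fold of 0.919 with a 95% interval from 0.806 to 1.05. If the fold is taken as the ratio of the group means and the groups as equal in size, the count works out at 12592 in KI and 13697 in WT. These are group means derived from the pooled mean, not measured per library, and the same derivation is used below. Per kilobase of the longest protein-coding GENCODE M21 transcript, Ttr had 11083 counts and ranked 34th among the genes with a length.

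Enpp2 encodes autotaxin, the secreted enzyme that makes lysophosphatidic acid. The authors' deposited table gave a mean normalised count of 10917.9 and a log2 fold change of -0.18 (SE 0.059), or a derived 10242 in KI and 11594 in WT. The interval of the fold ran from 0.816 to 0.957. Per kilobase its level was 3528, lower than that of Ttr and above those of the other 8. Because oligodendrocytes also make Enpp2, its value stands beside theirs: 16 of the 17 other oligodendrocyte genes tested were negative with a median log2 fold change of -0.079, and in the authors' deposited table Mbp stood at -0.070 (SE 0.053) and Cnp at -0.10 (0.038). The part of oligodendrocytes in the Enpp2 value was not tested.

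Kl encodes klotho, a membrane protein, also shed into the fluid, that serves as co-receptor for the hormone FGF23. In the authors' deposited table it had a mean normalised count of 595.3 and a log2 fold change of -0.40 (SE 0.11, unadjusted p = 3.3e-04, adjusted p = 0.321). The fold was 0.756 with an interval from 0.649 to 0.881, from a derived 513 in KI and 678 in WT. It ranked 14th by p of all genes. The receptors and proteases that work with klotho had values closer to 0: in the authors' deposited table Fgfr1 stood at -0.069 (SE 0.052), Fgfr2 at -0.076 (0.074) and Adam17, a sheddase, at 0.083 (0.085). Of 8 tested genes of that list besides Kl, 3 were negative and 5 positive, and none had an unadjusted p under 0.05.

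Ace encodes angiotensin-converting enzyme, a peptidase on the cell surface. It had the smallest p of the 10 in the authors' deposited table (p = 1.7e-04, adjusted p = 0.208, 11th of all genes), with a mean normalised count of 628.3 and a log2 fold change of -0.26 (SE 0.068). The fold was 0.837 (interval 0.763 to 0.918), from a derived 573 in KI and 684 in WT. Of the 10 other renin-angiotensin genes tested, 4 were negative and 6 positive with a median of 0.013. Agt, the angiotensin precursor, stood at -0.27 (SE 0.14) in the authors' deposited table, while the aminopeptidase gene Lnpep stood at 0.16 (0.11) and the receptor gene Mas1 at 0.10 (0.097).

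The ion channel gene Kcne2 and the vitamin transport gene Folr1 had lower counts and larger SEs than Ttr, Enpp2, Kl and Ace. Kcne2 encodes a beta subunit that sets the gating of potassium channels at the apical membrane. It had the most negative log2 fold change of the 10 in the authors' deposited table, -0.51 (SE 0.24, unadjusted p = 0.0307), at a mean normalised count of only 82.5. The derived means were 68 in KI and 97 in WT, and the interval of the fold ran from 0.507 to 0.967. The related subunit genes Kcne4 (-0.48, SE 0.25) and Kcne1l (-0.27, SE 0.16) were also negative in the authors' deposited table, both with intervals that include 0. Over the 13 tested genes of potassium channel partners 8 were negative, and the median log2 fold change was -0.031.

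Folr1 encodes folate receptor alpha, which moves folate across this epithelium into the fluid. The authors' deposited table gave a mean normalised count of 114.3 and a log2 fold change of -0.33 (SE 0.15, unadjusted p = 0.0280), a fold of 0.795 with an interval from 0.648 to 0.975. The derived means were 101 in KI and 127 in WT. Other folate genes were evenly divided, with 6 of 14 negative and a median log2 fold change of 0.017. Of these, Aldh1l1, an astrocyte enzyme, stood at -0.13 (SE 0.062) and Shmt1 at 0.26 (0.20) in the authors' deposited table.

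Clic6 encodes a chloride intracellular channel family protein. Its log2 fold change in the authors' deposited table was -0.19 (SE 0.10) at a mean normalised count of 452.6, and its 95% interval, from -0.39 to 0.011, just included 0. The derived means were 423 in KI and 482 in WT. The other 3 tested members of the family were negative too, Clic1 at -0.20 (SE 0.12), Clic5 at -0.14 (0.14) and Clic4 at -0.044 (0.065) in the authors' deposited table, each with an interval that includes 0.

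Cab39l and Slc31a1, the genes with the widest expression, were nearest to 0 beside Ttr. Cab39l encodes a scaffold of the kinases LKB1 and SPAK, and SPAK controls cation-chloride cotransport. It stood at -0.12 (SE 0.082) in the authors' deposited table, at a mean normalised count of 728.9. Its list of 16 other kinase and cotransporter genes had a median log2 fold change of 0.0084, with 6 negative and 10 positive. In the authors' deposited table Stk39, which encodes SPAK, stood at -0.10 (SE 0.055), the kinase gene Stk24 at -0.054 (0.063) and the cotransporter gene Slc12a7 at 0.29 (0.15). Slc31a1 encodes the copper importer CTR1, and at -0.051 (SE 0.062) and a mean normalised count of 578.3 in the authors' deposited table it was the nearest of the 10 to 0. The other copper genes, 9 of 15 of them negative, had a median of -0.040, with Steap2 at -0.16 (0.096), Atox1 at -0.13 (0.088) and Sco1 at -0.12 (0.10) in the authors' deposited table. Thyroid hormone and retinol transport genes other than Ttr had a median of 0.022, 6 of 13 negative. In the authors' deposited table the retinol transporter gene Stra6 stood at -0.23 (SE 0.14), the deiodinase gene Dio2 at 0.12 (0.075) and the organic anion transporter gene Slco1a4 at 0.14 (0.10). Of the 7 tested genes of lysophosphatidic acid signalling other than Enpp2, 3 were negative and the median was 0.012, with Plpp2 at -0.19 (0.18), Plpp1 at 0.095 (0.094) and Plppr4 at 0.038 (0.046) in the authors' deposited table.

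Tmem72 encodes a transmembrane protein of choroid plexus and kidney whose function is not established. In the authors' deposited table it had the lowest mean normalised count of the 10, 69.1, and a log2 fold change of 0.67 (SE 0.21, unadjusted p = 0.0016, adjusted p = 0.61). The fold was 1.59 with a 95% interval from 1.19 to 2.13, from a derived 85 in KI and 53 in WT. It ranked 2nd of all genes by log2 fold change and 36th by p. The gap between Tmem72 and the median of the other 9 was 0.86 on the log2 scale, and the upper ends of all 9 intervals lay below the lower end of its own. The 10 genes share their libraries and Tmem72 was named for this gap, so it was not tested.

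**Figure D2:**
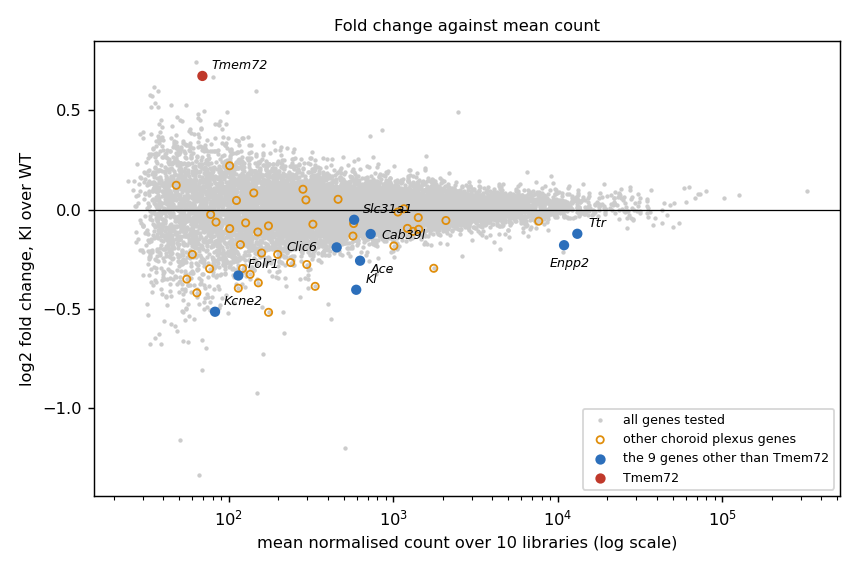
Log2 fold change, KI over WT, against mean normalised count (log axis) for all genes tested in the authors' deposited table, with the 10 genes and the 41 other choroid plexus genes marked. Tmem72 (mean count 69.1) lies near the upper edge of all genes, while Kcne2, at a like mean count of 82.5, lies near the lower one.

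A list of 51 other genes of choroid plexus epithelium gave the wider setting. It was not sorted by how closely each gene is tied to this epithelium, so its values may also come from other cells. Of the list, 41 genes were tested. Of these, 33 were negative and 8 positive, with a median log2 fold change of -0.099, beside 48.4% negative and a median of 0.0025 over all genes. Past the adjusted threshold were 2, both lower in KI, beside 0.0659% of all genes. Igf2, a growth factor that the meninges also make, fell (log2 fold change -0.29, SE 0.059, adjusted p = 0.0022, authors' deposited table). Slc5a5, the sodium iodide symporter, fell as well (-0.39, SE 0.090, adjusted p = 0.0295, authors' deposited table). A further 9 had an unadjusted p under 0.05 on the lower side, which made 11 of the 41, and none had one on the higher side. Of all genes 1.88% lay on the lower side and 1.34% on the higher. The next in order of p in the authors' deposited table were Ecrg4, a secreted peptide precursor of this epithelium (-0.52, SE 0.15), Kcnj13, its apical potassium channel (-0.33, SE 0.12), Pcolce (-0.37, SE 0.14), the sulfate transporter gene Slc13a4 (-0.28, SE 0.11), Igfbp2 (-0.18, SE 0.073) and Perp (-0.30, SE 0.14).

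No other gene of that list came near Tmem72. Among the highest in the authors' deposited table were Rdh5, a retinol dehydrogenase, at 0.22 (SE 0.17) and Calml4 at 0.12 (0.23), and both intervals include 0. Otx2, the homeodomain factor of this epithelium, stood at -0.42 (SE 0.21) in the authors' deposited table. It is named after its value was seen, as a regulator of choroid plexus identity.

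Markers of the neighbouring tissues are given beside these values. Ependymal genes, which line the same ventricles with motile cilia, were mixed in sign: 5 of 11 tested were negative, with a median log2 fold change of 0.052, and Foxj1, the master factor of motile cilia, stood at -0.089 (SE 0.14) in the authors' deposited table. Tm4sf1 stood at 0.052 (SE 0.10) and Cfap54 at 0.24 (0.22) there. The meninges list had 19 of 19 tested genes negative (median -0.17), beside 48.4% of all genes. Cldn11 stood at -0.083 (SE 0.047) and Dcn at -0.044 (0.090) beside Igf2 in the authors' deposited table. The thalamus list had 15 of 17 negative (median -0.46). Past the adjusted threshold were 5 of them, all lower in KI, beside 0.0659% of all genes. These 5 are among the 9 lower genes past it in the whole table, and the list was written with earlier results known, so nothing is read from this count. Slc17a6 stood at -0.32 (0.11), Ntng1 at -0.23 (0.080) and Cacna1g at -0.035 (0.12) in the authors' deposited table. Summed over each list, the derived group means were 1007 in KI and 986 in WT for ependyma, 9389 in KI and 10476 in WT for meninges, and 5838 in KI and 7379 in WT for thalamus. The meninges sum is led by Cldn11, which is also on the oligodendrocyte list (4293 in KI and 4546 in WT), and it shares Igf2 and Slc13a4 with the list of other choroid plexus genes. For the 9 choroid plexus genes without Tmem72 the sums were 25778 in KI and 28707 in WT, mostly Ttr and Enpp2. These lists were written with earlier results of this comparison known, and markers with a mean normalised count under 24.4, the table's minimum, were not analysed here. The part of carried-over tissue in the values of the 10 genes was not tested.

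**Figure D3:**
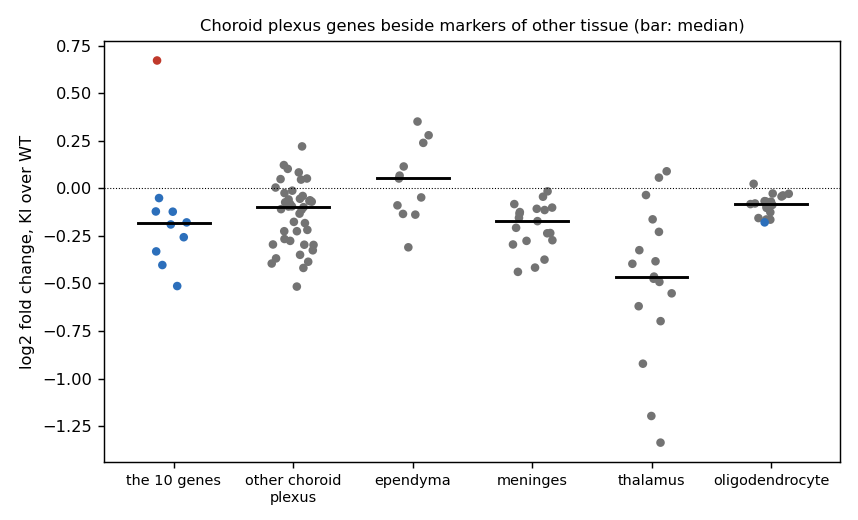
Log2 fold change, KI over WT, of the 10 genes, the other choroid plexus genes and 4 marker lists in the authors' deposited table; each point is a gene and each bar a median. The medians are -0.18 for the 10 genes, -0.099 for other choroid plexus genes, 0.052 for ependyma, -0.17 for meninges, -0.46 for thalamus and -0.081 for oligodendrocytes with Enpp2 (blue) included.

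The standard errors come from the same comparison and are likewise described without a test; at a given count, an SE grows with the spread between libraries of a group. Each SE was set against the median SE of genes whose mean normalised count was 0.8 to 1.25 times that of the gene. For Ttr the SE in the authors' deposited table was 2.10 times that median, and 96.6% of the 117 genes of like count had a smaller one. Kl had a ratio of 1.39, Kcne2 1.35, Enpp2 1.27 and Clic6 1.16. Tmem72, with 1.12, and Cab39l, with 1.07, were close to their medians. Folr1 (0.984), Ace (0.858) and Slc31a1 (0.754) were below them. The ratio thus ranged widely within the set, with 7 of the 10 above 1, beside 6765 of all 13660 genes. The thalamus list had a median ratio of 1.37, the meninges list 1.12 and the other choroid plexus genes 1.05.

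**Figure D4:**
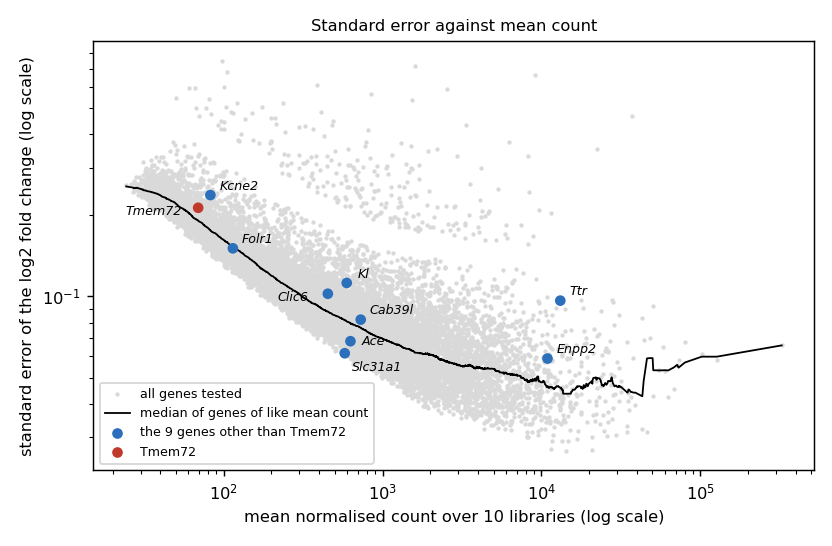
Standard error of the log2 fold change against mean normalised count, both on log axes, for all genes tested in the authors' deposited table; the line is the median of genes of like mean count. Ttr lies farthest above the line among the 10, at 2.10 times the median, and Slc31a1 lies below it at 0.754 times.

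The 10 genes lie on 9 chromosomes, with Kcne2 and Clic6 both on chromosome 16, and Tmem72 was singled out with its position near the ROSA26 locus known. In the RefSeq annotation of GRCm38.p6, Tmem72 (gene 319776) spans chr6:116691539-116716982 and Gt(ROSA)26Sor, a non-coding RNA gene that marks the ROSA26 locus, spans chr6:113067428-113077244. The gap between them is 3.61 Mb. Gt(ROSA)26Sor had the smallest p of all genes in the authors' deposited table and fell in KI (log2 fold change -0.72, SE 0.13, adjusted p = 9.6e-04). The sources used here do not say whether the knock-in allele lies at this locus.

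Between the 2 loci 49 genes were tested, and none was as far from 0 as Tmem72: their log2 fold changes ran from -0.15 to 0.27 with a median of 0.013. An unadjusted p under 0.05 was given to 2 on the higher side and 1 on the lower, beside 1.34% and 1.88% of all genes. Those on the higher side in the authors' deposited table were Washc2, a subunit of an endosomal actin-regulating complex (0.18, SE 0.056), and Tmcc1 (0.11, SE 0.047). On the lower side there was Slc6a11 (-0.13, SE 0.063). These genes were named after their values were seen. Within 2 Mb of Gt(ROSA)26Sor, 35 other genes held 3 with such a p on the lower side and 0 on the higher. Washc2 and Tmcc1 lie within 1 Mb of Tmem72, where 15 genes had a median of 0.022. Its nearest tested neighbours were at 0.040 (SE 0.11) for Rassf4, 17.7 kb away, and -0.054 (SE 0.085) for Cxcl12, 451.6 kb away, in the authors' deposited table. Within 5 Mb of Gt(ROSA)26Sor, 66 genes had a median of 0.012, beside 0.00055 for 674 genes of chromosome 6. The 5 tested choroid plexus genes elsewhere on chromosome 6 (Aqp1, Slc4a5, Slc13a4, Strip2 and Vamp8) were all negative, from -0.066 to -0.28. On the whole list of other choroid plexus genes 33 of 41 were negative. Of the genes on chromosome 6, all but Slc13a4 had a 95% interval that includes 0.

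**Figure D5:**
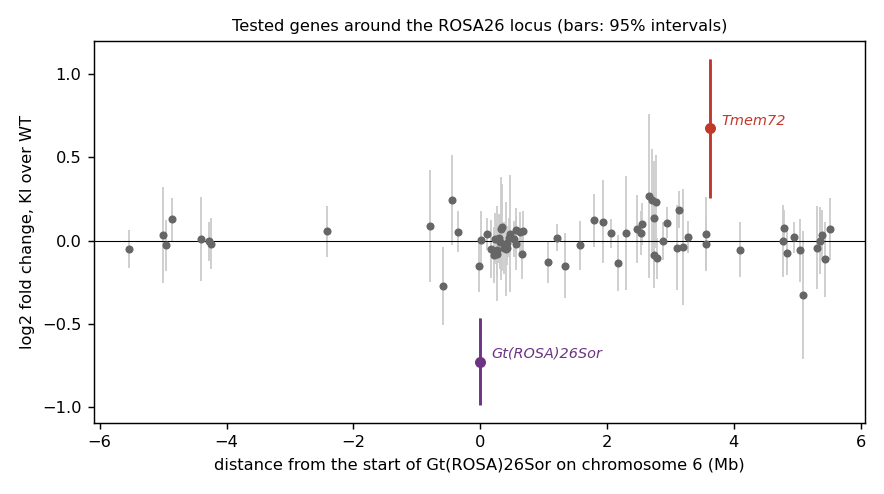
Log2 fold change, KI over WT, of the tested genes on chromosome 6 by distance in Mb from the start of Gt(ROSA)26Sor, from the authors' deposited table; lines are 95% intervals. Tmem72 (0.67) and Gt(ROSA)26Sor (-0.72) stand apart from the 49 genes between them, which lie from -0.15 to 0.27.

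The annotations differ on where Tmem72 ends. GENCODE M21 gives it 37851 bases and a transcript of 17152 bases that runs 12.5 kb beyond the RefSeq end, so its level per kilobase (4.03 on the GENCODE transcript, the lowest of the 10) depends on the annotation. No other gene overlaps it in GENCODE M21. For other members, reads in a stretch shared with another gene cannot be told apart, because no source used here says whether counting used strand. GENCODE M21 has Enpp2 overlap Gm26684 and Ace overlap Gm11651, both on the opposite strand. It has Clic6 overlap 2410124H12Rik on the same strand, where strand would not help. No values are given here for these overlapping genes. In GENCODE M21, Folr1 overlaps Anapc15 on the opposite strand, which stood at -0.19 (SE 0.10) in the authors' deposited table. Slc31a1 overlaps Cdc26 (-0.055, SE 0.094) and Cab39l overlaps Cdadc1 (-0.019, SE 0.060) in the same way, with values from the authors' deposited table. The RefSeq spans of the pairs given with values do not overlap. They lie 10.5 kb apart for Folr1 and Anapc15, 0.575 kb for Slc31a1 and Cdc26 and 10.5 kb for Cab39l and Cdadc1. The RefSeq spans of Slc31a1 and Fkbp15 do overlap, with a gap of -0.013 kb.

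The other genes span chr16:92292389-92298133 (Kcne2), chr16:92498147-92541241 (Clic6), chr5:150952607-150993817 (Kl), chr15:54838901-54952789 (Enpp2), chr7:101858331-101870788 (Folr1), chr14:59440934-59548904 (Cab39l), chr4:62360583-62391769 (Slc31a1) and chr11:105967948-105989964 (Ace), and Ttr lies on chromosome 18. All 10 are protein-coding, and the authors' deposited table holds 1 comparison per gene, not per transcript. Their 20 nearest tested neighbours, none of them among the 10, were evenly divided, 10 negative and 10 positive, with a median log2 fold change of -0.0032. Smim11, next to Kcne2 and 3.11 kb away, stood at -0.38 (SE 0.17, unadjusted p = 0.0223) in the authors' deposited table and was the 1 neighbour with an unadjusted p under 0.05. Kcne2 and Clic6 are 200.01 kb apart, and Rcan1, the other tested gene between them, stood at -0.031 (SE 0.068) in the authors' deposited table.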

How the data were processed

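Cortical poly(A) RNA from 5 KI and 5 WT males (age 8 weeks) was sequenced, and the titles gave each sample its group. The authors used, per the submitters' processing notes, Trimmomatic 0.39, HISAT2 2.1.0, featureCounts 2.0.0 and DESeq2 1.26.0, with the build mm10; their settings, the annotation, any filter, the model formula and whether fold changes were shrunken are all not given in the sources here. Per the file headers, the authors' deposited table holds for each gene a mean normalised count (a signal value scaled by the authors' size factors), a log2 fold change with its standard error, the Wald score, and the p-value and adjusted p-value. The deposited adjusted p-values equalled a Benjamini-Hochberg adjustment over 13660 genes.

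RefSeq GRCm38.p6 named 13497 of 13661 gene numbers. Intervals, derived group means, list counts and medians were computed with Python 3.11.15, pandas 2.3.3, NumPy 2.4.6 and SciPy 1.17.1. The calculation of the adjustment and intervals was run on values simulated from the deposited SEs. Interval coverage was fixed by that design, so the run checked the calculation and not the SEs. The depth per library is unknown, and no count model or test across libraries was run. The deposited p-values come from the Wald score, which sets the log2 fold change against its standard error, and rest on these 10 libraries only. The 10 genes and all lists were chosen with earlier results of these data known. Genes named were the 10, Chd8, Gt(ROSA)26Sor, the 8 other choroid plexus genes and 3 genes per role list with the smallest p, the 3 most abundant markers per tissue, the neighbours of Tmem72 and the 3 choroid plexus genes nearest to it in fold change; some genes that this rule names are not reported here. Cortical markers, Otx2, Washc2, Tmcc1, Slc6a11, Smim11, Rcan1 and overlapping genes were added after their values were seen. Alternatives were other thresholds, count minimums of 50 and 200, other interval levels, other windows and leaving out single genes.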

Additional observations from a re-analysis of the deposited data

How the results depend on the processing

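The count of genes past the threshold in the whole table was 10, and it was 6 at an adjusted p under 0.01. Of the 10 choroid plexus genes, 5 had a 95% interval below 0, and 3 had a 99% interval there (Kl, Enpp2 and Ace). Of the other choroid plexus genes, 33 of 41 were negative, and 15 of 19 with a minimum mean normalised count of 200, where fewer genes were left. Tmem72 (69.1), Kcne2 (82.5) and Folr1 (114.3) lie below that minimum, and the 7 genes of the set above it were all negative. The gap of Tmem72 to the median of the other 9 lay between 0.85 and 0.90 on the log2 scale with a weighted mean or with any 1 of the 9 left out. The 9 were chosen as lower in KI and share their libraries, so this range does not test the gap. The median near Gt(ROSA)26Sor lay between -0.0010 and 0.012 for windows of 2, 5 and 10 Mb. No paired analysis was possible because the deposited table holds no values per library; for the same reason no replicate could be left out and no other normalization tried. The low counts of Tmem72 and Kcne2 limit the precision of both.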
